A study of Mus musculus with 12 samples.

Results

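The members described here are the solute carrier (Slc) genes, taken as every probe set of the array annotated with a single gene symbol that begins with Slc and a digit, less 1 gene that is not reported here. Where a gene had several probe sets, the brightest by mean over all arrays stood for it. The rule gave 150 genes out of 8251 with a single-symbol probe set, represented by 184 probe sets, and 29 of the 150 had more than 1. Of these, 99 passed the filter on low values (above the median of the array on at least 2 arrays) and 51 did not. The labels name the gene family only. Adaptors such as Slc9a3r1, which carry nothing across a membrane, belong to the set by name, and several classic hippocampal carriers, the vesicular glutamate carriers Slc17a6 and Slc17a7 and the astrocytic glutamate carrier Slc1a3 among them, were not analysed here.

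Solute carriers are membrane proteins that move amino acids, sugars, ions, nucleosides, metals and transmitters into and out of cells and organelles, either down a gradient or coupled to one. In the hippocampus neurons, astrocytes, microglia, capillary endothelium and the adjoining choroid plexus each use a different set of them, so that single carriers can mark a cell type. CREB is a transcription factor that binds the cyclic AMP response element, and VP16-CREB is a constitutively active form of it.

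All mice of the transgenic (VC) groups carry VP16-CREB under doxycycline (dox) control, with the transgene silent on dox and switched on when dox is withdrawn. The promoter that drives the system, the age of the mice and their strain do not appear in the sources used here. Whole hippocampus came from VC mice off dox, as 2 arrays for 1 week, 2 arrays for 2 weeks and 1 array for 5 weeks, and from VC mice returned to dox for 2 weeks after 3 weeks of expression (n = 1, reversed). The never-induced hippocampal arrays were 2 of wild-type mice and 1 of VC mice kept on dox. CA1, a microdissected subfield of the hippocampus, came from VC mice 3 weeks off dox (n = 2) and from wild-type mice (n = 1). Each hippocampal array held RNA pooled from 6 to 10 mice, so p-values describe the spread between pools. Wild-type mice were housed like the transgenic ones, but whether each wild-type pool was on or off dox is not stated. The reversed array is VC by its title but wild type by its description, and it stands as a group of its own.

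Levels are given as log2 of scaled intensity, after every array was scaled to a trimmed mean of 1000, with low values set to a floor of 6.04. "Late" means the 3 arrays at 2 and 5 weeks, and "induced" every VC array off dox. A difference was called at a Benjamini-Hochberg adjusted p under 0.05 over 7069 probe sets. Levels of different genes come from different probes and were not set against each other. In RNA of whole tissue, fewer cells of a type and less RNA per cell cannot be told apart.

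On the lower deposited scale stood 1 hippocampal array (wild type 1) and all 3 CA1 arrays, so that region and scale nearly coincide. The 10 microglial markers summed to 14.78 to 15.74 on the late arrays, 14.47 on the reversed array and 13.88 to 14.19 on never-induced arrays, all as log2. In CA1 the same sum was 15.84 and 15.96 on the VC arrays, against 14.51 on the wild-type array. Of this list Cx3cr1 and Itgam overlapped between late and never-induced arrays, with Cx3cr1 at 9.55 to 9.88, against 9.72 to 10.05. Every other microglial marker was higher on all late arrays than on all never-induced ones. The 7 measured choroid plexus markers summed to 13.91 and 14.02 at 1 week and 12.74 to 13.70 on late arrays, against 12.50 to 13.03 on never-induced arrays. No listed marker of these 2 lists was at the floor on every array. The CA1 marker Wfs1 lay between 11.44 and 12.02 in CA1, against 10.90 to 11.63 in whole hippocampus, so the ranges overlapped.

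Because CREB binds the cyclic AMP response element, RefSeq promoter windows (GRCm38.p6, 250 bases before to 50 bases after each gene's start) were searched on both strands for the full site TGACGTCA and for its short forms TGACG and CGTCA, which the full site contains. Windows were found for 123 of the 150 genes. The full site stood in 2 of them (1.63%), against 2.03% of 27025 genes in all and 3.60% of the tested genes. Among members that passed the filter, 32 of 82 (39.0%) held a short form, against 37.1% of the tested genes. The 2 windows with a full site belong to Slc25a25 and Slc25a36, and the short forms shown with them belong to Slc1a4 and Slc38a10, which are described among the members with the smallest p for induction. No match was found in the windows of Slc9a3r1, Slc3a2 and Slc4a3. Each stretch is 60 bases on the minus strand, read 5′ to 3′ along the gene, with the match in capitals.
Slc25a25, chr2:32424183-32424242: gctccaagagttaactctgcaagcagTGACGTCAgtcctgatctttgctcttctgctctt
Slc25a36, chr9:97111169-97111228: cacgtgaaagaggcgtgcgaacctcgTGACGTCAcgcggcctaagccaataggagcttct
Slc1a4, chr11:20332814-20332873: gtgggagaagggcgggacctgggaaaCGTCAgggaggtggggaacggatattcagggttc
Slc38a10, chr11:120151319-120151378: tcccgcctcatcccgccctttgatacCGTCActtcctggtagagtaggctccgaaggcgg
A match is a run of letters and was not tested for binding. Counted from the start of the gene, the match began at -150 in Slc25a25 and at -161 in Slc25a36.

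The first comparison asked which members differ between induced and uninduced tissue when both regions are used, with region as a covariate (11 arrays, without the reversed one). None of the 99 tested members was called (0 of 99, against 0.0283% of all probe sets), and 6 had an unadjusted p under 0.05 (6.06%, against 6.88% of all probe sets). Over the members 48 differences were positive and 51 negative, with a median of -0.01 on the log2 scale and -0.02 over all probe sets. The members as a group thus lay where the rest of the array lay. What follows gives the members with the smallest p, and those whose groups did not overlap, as values.

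Induced arrays lay above uninduced ones without overlap in both regions for 3 of the 99 tested members, Slc1a4, Slc3a2 and Slc9a3r1 (3.03%, against 1.1% of all probe sets), and below them for 1, Slc4a3 (1.01%, against 1.06%). Late hippocampal arrays lay above all never-induced ones for 8 members (8.08%, against 6.14% of all probe sets) and below them for 1 (against 6.28%). The 8 were those 3 with Slc38a10, Slc7a5, Slc6a9, Slc25a25 and Slc25a39.

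Slc9a3r1 encodes NHERF1, a scaffold that ties carriers and receptors to the cytoskeleton. Its level was 11.08 and 11.49 at 1 week, 11.68 and 11.12 at 2 weeks, with 11.68 at 5 weeks, against 10.79 and 10.90 in wild-type hippocampus and 11.02 in VC hippocampus on dox. The reversed array, at 10.95, lay within the never-induced range. CA1 gave 12.64 and 12.61 in VC mice, against 12.09 in wild-type mice. The induced arrays were thus the higher ones in both regions, and the lowest induced array cleared the highest never-induced array by a small step. The difference was 0.51 ± 0.14 (SE) with region as a covariate (adjusted p = 0.393), and 0.59 ± 0.19 for late against never-induced hippocampus (adjusted p = 0.497).

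Slc1a4 encodes ASCT1, an exchanger of alanine, serine and cysteine. It measured 11.24 and 11.34 at 1 week, 11.68 and 11.24 at 2 weeks, with 11.58 at 5 weeks, against 11.08, 11.14 and 11.17 on the never-induced arrays. The reversed array was at 11.09, inside the never-induced range. In CA1 the values were 11.68 and 11.45 in VC mice, against 11.10 in wild-type mice. Every induced array was above every uninduced array of its region, and 2 of the 5 hippocampal ones stood apart from the other 3, which were close to the never-induced arrays. The difference with region as a covariate was 0.33 ± 0.12 (adjusted p = 0.555).

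Slc3a2, the heavy chain (4F2hc, CD98) that carries several amino acid exchangers to the membrane, read 12.67 and 12.63 at 1 week, 12.71 and 12.86 at 2 weeks, with 12.80 at 5 weeks, against 12.35, 12.62 and 12.37 on never-induced arrays. CA1 gave 12.84 and 13.02 in VC mice, against 12.63 in wild-type mice. One wild-type pool nearly met the lowest induced pool. The reversed array, at 12.80, was as high as the late arrays, unlike that of Slc9a3r1 and Slc1a4. The difference with region as a covariate was 0.29 ± 0.10 (adjusted p = 0.538), and reversed minus late was 0.01 ± 0.20 (adjusted p = 0.996).

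Slc7a5 encodes LAT1, the large neutral amino acid carrier that works as a dimer with Slc3a2. Its values were 11.18 and 11.21 at 1 week, 11.56 and 11.30 at 2 weeks, with 11.44 at 5 weeks, against 11.28, 11.20 and 11.28 on never-induced arrays. Of the induced arrays only the late ones, and the reversed array at 11.39, were above all never-induced ones, by little, and the late difference was 0.18 ± 0.14 (adjusted p = 0.999). Another partner of Slc3a2, Slc7a7, is described with the microglial carriers.

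Slc38a10, a member of the family of sodium-coupled neutral amino acid carriers, measured 10.44 and 10.33 at 1 week, 10.72 and 10.69 at 2 weeks, with 10.76 at 5 weeks, against 10.17, 10.28 and 10.38 on never-induced arrays. The reversed array was at 10.18. CA1 gave 11.28 and 10.91 in VC mice, against 10.50 in wild-type mice. The 3 late arrays lay close together and clear of the never-induced ones, while 1 week overlapped them. The late difference was 0.45 ± 0.15 (adjusted p = 0.541), the CA1 difference 0.59 ± 0.22 (adjusted p = 0.346), and the reversed array was lower than the late ones by a difference of -0.55 ± 0.21 (adjusted p = 0.806). The dimmer probe set of Slc38a10, under the filter and at the floor on most arrays, differed in CA1 by -0.69.

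**Figure D1:**
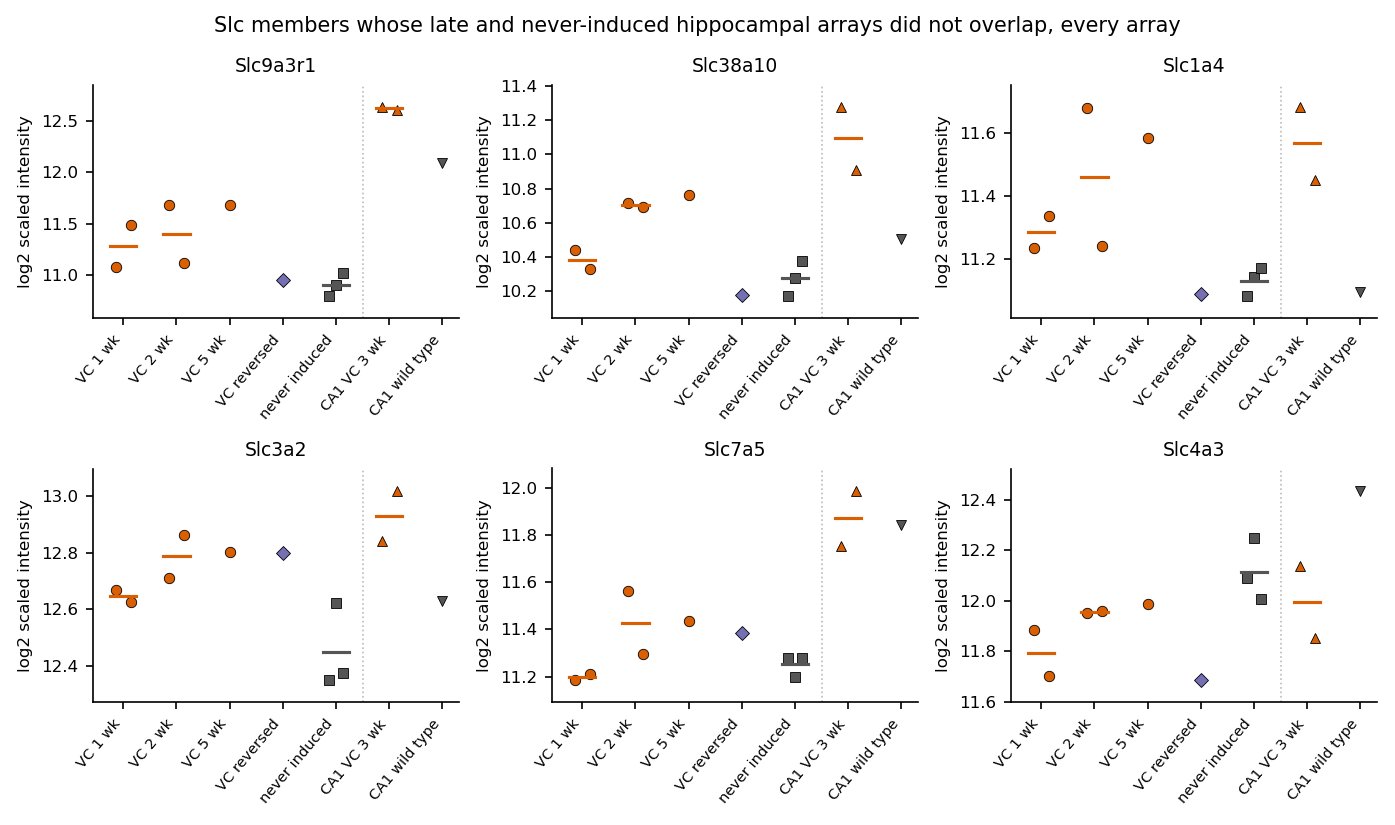
Log2 scaled intensity (y axis) of 6 Slc members on every array, by group (x axis), with bars at the mean of groups of 2 or 3 arrays and a dotted line between hippocampus and CA1. Slc9a3r1, Slc1a4 and Slc3a2 were higher on every induced array than on every uninduced array of the same region, and Slc4a3 was lower, with no adjusted p under 0.05.

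Slc4a3 encodes AE3, a chloride and bicarbonate exchanger of neurons, and measured 11.89 and 11.70 at 1 week, 11.95 and 11.96 at 2 weeks, with 11.99 at 5 weeks, against 12.09, 12.25 and 12.01 on never-induced arrays. The reversed array, at 11.68, was lower than all of these. In CA1 the values were 12.14 and 11.85 in VC mice, against 12.44 in wild-type mice. The 5-week array and the VC array on dox were nearly equal, so the separation in hippocampus was narrow. The difference with region as a covariate was -0.28 ± 0.11 (adjusted p = 0.609).

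Slc25a25 is an ATP-magnesium and phosphate carrier of mitochondria that calcium activates, and it is one of the 2 genes with a full cyclic AMP response element in its window. It measured 11.30 and 11.02 at 1 week, 11.52 and 11.43 at 2 weeks, with 11.40 at 5 weeks, against 11.13, 11.35 and 11.32 on never-induced arrays. CA1 gave 11.14 and 11.53 in VC mice, against 11.04 in wild-type mice. The late arrays were above the never-induced ones by a margin smaller than the spread among the never-induced arrays, with a difference of 0.18 ± 0.16 (adjusted p = 0.999). Slc25a36, a pyrimidine nucleotide carrier and the other gene with the full site, had a late difference of -0.03 ± 0.15 (adjusted p = 0.999) and a CA1 difference of -0.24 ± 0.23 (adjusted p = 0.763).

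Carriers of microglia and macrophages were represented by 3 of 7 listed genes. Slc11a1 (NRAMP1), which pumps metal ions out of the phagosome, measured 7.78 and 7.93 at 1 week, 7.85 and 8.59 at 2 weeks, with 9.38 at 5 weeks, against 8.24, 8.56 and 8.23 on never-induced arrays. The reversed array was at 8.78. CA1 gave 8.93 and 9.54 in VC mice, against 7.83 in wild-type mice. The highest levels were thus those of the 5-week array and of both CA1 VC arrays, which also had the highest sums of microglial markers of all arrays. At 1 week both arrays were below all never-induced ones.

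For Slc11a1 the CA1 difference was 1.41 ± 0.35 (adjusted p = 0.136), the smallest adjusted p of a member in CA1. Late minus 1 week was 0.75 ± 0.26 (adjusted p = 0.456), with 0.36 without the 5-week array and 1.13 without array 1 at 2 weeks. The late minus never-induced difference of 0.26 ± 0.24 (adjusted p = 0.999) rested on the 5-week array and was -0.13 without it. The CA1 effect exceeded the hippocampal late effect by 1.15 ± 0.43 (adjusted p = 0.771). The sum of microglial markers did not follow Slc11a1 on every array. Array 1 at 2 weeks had a sum of 14.78 with Slc11a1 at 7.85, and wild-type CA1 14.51 with 7.83. The part of these markers in the Slc11a1 values was not tested.

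Slc2a5 (GLUT5), the fructose carrier found on microglia in brain, read 7.10 and 6.04 at 1 week, 8.03 and 8.20 at 2 weeks, with 7.41 at 5 weeks, against 7.56, 6.04 and 7.0 on never-induced arrays, where 6.04 is the floor. CA1 gave 8.59 and 7.76 in VC mice, against 8.40 in wild-type mice. The 2-week arrays were the highest of the hippocampus, the 5-week array lay inside the never-induced range, and CA1 showed no step. The late difference was 1.01 ± 0.42 (adjusted p = 0.903), and 0.60 without wild-type array 2, which was at the floor.

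Slc7a7 (y+LAT1), a partner of Slc3a2 in cationic amino acid exchange that macrophages use, did not pass the filter. It read 7.26 and 7.50 in CA1 of VC mice, against the floor of 6.04 in CA1 of wild-type mice. On the hippocampal arrays it lay at the floor or, on 1 array at 2 weeks, at 6.06. A level above the floor by a clear step was therefore seen on both CA1 VC arrays only. Against the floor in the 1 wild-type array, its level in VC CA1 was at least 2.54-fold higher.

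**Figure D2:**
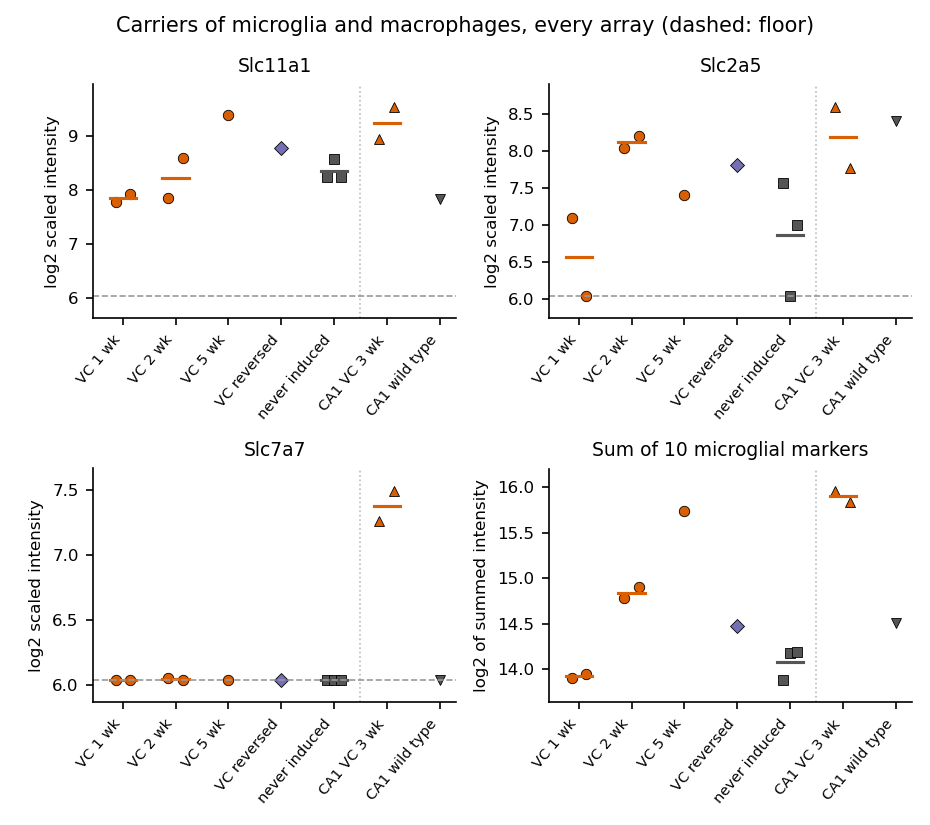
Log2 scaled intensity (y axis) of Slc11a1, Slc2a5 and Slc7a7 and log2 of the summed intensity of 10 microglial markers on every array, by group (x axis); the dashed line is the floor and bars are means. Slc11a1 and the marker sum were high on the 5-week array and on both CA1 VC arrays, and Slc7a7 left the floor on both CA1 VC arrays.

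Among carriers of neurons, none of the 11 tested was called for late or CA1 induction. The list of transmitter and amino acid uptake (8 genes on the array, 7 tested) also held the glucose carrier Slc2a3 and the ascorbate carrier Slc23a2. It had a median late difference of -0.08 and a median CA1 difference of 0.03. The list of ion carriers (3 tested) had medians of -0.06 and -0.44, against -0.02 over all probe sets in both comparisons. Slc30a3 (ZnT3), which loads zinc into glutamatergic synaptic vesicles, was 13.10 and 12.78 at 1 week, 13.19 and 12.94 at 2 weeks, with 12.30 at 5 weeks, against 13.14, 12.96 and 12.85 on never-induced arrays. The CA1 values were 12.54 and 12.76 in VC mice, against 13.07 in wild-type mice. The 5-week array was the lowest, and the 2-week arrays lay about the never-induced ones. Its late difference of -0.17 ± 0.16 (adjusted p = 0.999) was 0.081 without the 5-week array, and the CA1 difference was -0.43 ± 0.24 (adjusted p = 0.572). The dimmer probe set of Slc30a3, under the filter, differed in CA1 by 0.77, in the opposite direction. It was 7.58 and 6.04 in VC mice, against 6.04 in wild-type mice, where 6.04 is the floor, so that difference rests on 1 array.

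Slc12a5 (KCC2), the potassium-chloride carrier that keeps chloride low in mature neurons, measured 9.19 and 8.68 at 1 week, 8.69 and 8.64 at 2 weeks, with 8.53 at 5 weeks, against 8.89, 8.26 and 8.88 on never-induced arrays. CA1 gave 7.57 and 7.28 in VC mice, against 8.27 in wild-type mice. Hippocampal groups overlapped, whereas both CA1 VC arrays were below every other array. The CA1 difference was -0.85 ± 0.33 (adjusted p = 0.378), and it was lower than the late hippocampal effect by -0.79 ± 0.40 (adjusted p = 0.92). The summed neuronal markers were 14.86 and 15.40 in CA1 of VC mice, against 15.22 in wild-type CA1.

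Slc1a1 (EAAC1), a neuronal glutamate and cysteine carrier, read 10.44 and 10.67 at 1 week, 10.55 and 10.53 at 2 weeks, with 10.20 at 5 weeks, against 10.50, 10.67 and 10.83 on never-induced arrays. The groups overlapped, with the 5-week array lowest, and the late difference was -0.24 ± 0.16 (adjusted p = 0.999), or -0.12 without that array. Slc8a1 (NCX1), a sodium-calcium exchanger, had a late difference of 0.04 ± 0.18 (adjusted p = 0.999) and a CA1 difference of 0.36 ± 0.27 (adjusted p = 0.693). Its 2 dimmer probe sets, both under the filter, differed in CA1 by -0.54 and -1.14. The latter was at the floor of 6.04 on both CA1 VC arrays, against 7.18 in wild-type CA1. Of the monoamine carriers, whose cell bodies lie outside the hippocampus, the dopamine carrier Slc6a3 did not pass the filter and ranged from 6.04 to 7.32. The noradrenaline carrier Slc6a2 had a late difference of -0.46 ± 0.32 (adjusted p = 0.999), while its dimmer probe set, under the filter, differed by 0.25. The vesicular acetylcholine carrier Slc18a3 was at the floor on all 12 arrays.

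**Figure D3:**
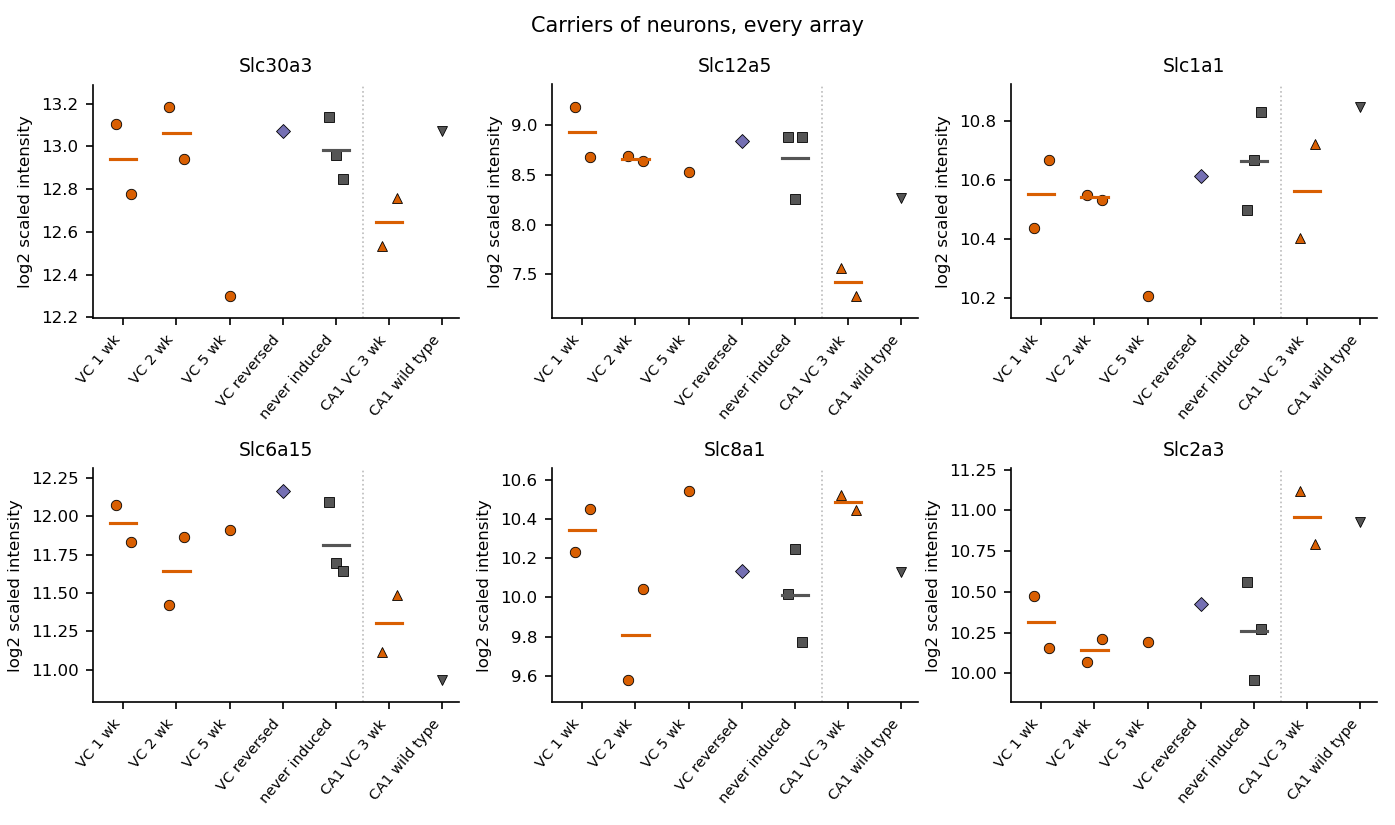
Log2 scaled intensity (y axis) of 6 carriers of neurons on every array, by group (x axis), with bars at the mean. Slc12a5 was lowest on the 2 CA1 VC arrays (7.57 and 7.28), Slc30a3 and Slc1a1 were lowest on the 5-week array, and Slc2a3 was higher on the 3 CA1 arrays than on all hippocampal arrays.

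Of the astrocyte carriers 5 were on the array and 4 were tested. Their median late difference was -0.02 and their median CA1 difference -0.02, and none was called. Slc1a2 (GLT-1), the main glutamate carrier of astrocytes, was 9.40 and 9.30 at 1 week, 9.24 and 8.83 at 2 weeks, with 9.91 at 5 weeks, against 9.38, 9.41 and 9.36 on never-induced arrays. The 3 late arrays lay on both sides of the never-induced ones, and the difference was -0.06 ± 0.20 (adjusted p = 0.999). Over the same arrays the astrocyte marker Gfap was 13.75, 13.56 and 14.35 on late arrays, against 11.79, 12.21 and 12.10 on never-induced arrays. Each other marker of the 7 listed overlapped between these groups. Gja1, for example, was 12.82, 12.39 and 13.11, against 12.95, 12.27 and 12.46. Slc6a9 (GlyT1), the glycine carrier, had a late difference of 0.19 ± 0.15 (adjusted p = 0.999).

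The endothelial list had 7 genes on the array and 4 tested, all 4 with positive late differences (median 0.18, highest 0.34 for Slc3a2) and none called. Slc2a1 (GLUT1), the glucose carrier of the blood-brain barrier, had a late difference of 0.17 ± 0.24 (adjusted p = 0.999). Summed endothelial markers were 11.33 to 11.45 on late arrays, against 11.34 to 11.68 on never-induced arrays. Oligodendrocyte carriers (2 tested) included Slc44a1 (CTL1), a choline carrier, with a late difference of -0.39 ± 0.27 (adjusted p = 0.999), which ran from -0.15 without the 5-week array to -0.65 without array 1 at 2 weeks. The other was the heme carrier Slc48a1, at 0.07 ± 0.53 (adjusted p = 0.999).

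The member probe set brightest over all arrays was that of Slc25a4, the ADP/ATP carrier of the mitochondrial inner membrane, which lay between 13.90 and 14.38 on all 12 arrays. Mitochondrial carriers, 13 of 23 listed genes and all tested, had 5 positive and 8 negative late differences with a median of -0.03, and none was called. Their CA1 median was 0.02. The list of nucleotide sugar carriers, whose family feeds glycosylation in the Golgi and endoplasmic reticulum, had 5 tested members. All 5 late differences were negative, from -0.32 for the sialic acid carrier Slc35a1 (-0.14 without array 1 at 2 weeks) to -0.03 for Slc35b1, which is now known to carry ATP, and none was called. The 4 other tested Slc35 genes, grouped after their values had been seen, had 3 positive and 1 negative late differences with a median of 0.10. The 11 tested zinc and other metal carriers, a group formed after their values had been seen, had 7 positive and 4 negative late differences with a median of 0.03. Slc23a3, an orphan relative of the ascorbate carriers, read 10.21 and 10.91 in CA1 of VC mice, against 9.68 in wild-type CA1, with a difference of 0.88 ± 0.32 (adjusted p = 0.335), or 0.53 without VC array 2. Its other probe set differed by -0.23, in the opposite direction.

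For late against never-induced hippocampus, none of the members was called (0.721% of all probe sets were), 5 had an unadjusted p under 0.05, and 52 differences were positive and 47 negative. In CA1 of VC against wild-type mice again none was called (1.26% of all probe sets), and 6 had an unadjusted p under 0.05. Among the falls in CA1 the smallest p was that of Slc50a1, with a difference of -0.57 ± 0.21. Its values were 10.57 and 10.47 in VC mice, against 11.09 in wild-type mice. Without VC array 1 of CA1, which leaves 1 array against 1, 4 members were called (4.04%, against 5.39% of all probe sets): Slc11a1 at 1.71 (adjusted p = 0.0401, over a range of 0.0401 to 0.216 for all alternatives), Slc23a3, the amino acid carrier Slc38a4 and the monocarboxylate carrier Slc16a8. With no filter 4 of the 150 members were called (2.67%, against 2.77% of all probe sets), Slc7a7 higher in VC and Slc2a2, Slc22a6 and Slc51a lower. Of the 12 arrays, 11 were at the floor for Slc2a2, the liver glucose carrier, and 9 each for Slc7a7 and Slc22a6. The floor leaves such genes little spread between arrays, so their p-values are not used here. Slc51a, also under the filter, was at the floor on 0 of the 12 arrays, so this reason does not cover its call. Its difference in CA1 was -1.24, against 1 wild-type array. The induction effect of CA1 differed from the late effect of hippocampus for no member (0.099% of all probe sets), with an unadjusted p under 0.05 for 3.

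At 1 week no member differed from the never-induced arrays by the adjusted test (0.0283% of all probe sets), and 2 had an unadjusted p under 0.05. Slc25a45, a mitochondrial carrier, was 8.39 and 7.99 at 1 week, against 8.65, 8.97 and 8.66 on never-induced arrays, and 8.87, 9.21 and 8.61 on late ones. Both 1-week arrays were the lowest of the 8. Its 1-week difference was -0.57 ± 0.19 (adjusted p = 0.969), or -0.37 without array 2 at 1 week, and late minus 1 week was 0.71 ± 0.19 (adjusted p = 0.316). Slc12a4 (KCC1), a potassium-chloride carrier of cell volume control, had the same order: 9.26 and 9.20 at 1 week, against 9.53, 9.76 and 9.77 on never-induced arrays, and 9.92, 9.96 and 9.67 on late ones.

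Slc25a10, the mitochondrial dicarboxylate carrier, was 8.27 and 7.67 at 1 week, 9.19 and 8.71 at 2 weeks, with 8.34 at 5 weeks, against 8.23, 8.87 and 8.83 on never-induced arrays, with a difference of 0.78 ± 0.27 for late minus 1 week (adjusted p = 0.433), or 0.48 without array 2 at 1 week. Between late and 1-week arrays no member was called (0.396% of all probe sets), and 7 had an unadjusted p under 0.05. The summed choroid plexus markers were highest at 1 week, as given above, whereas Slc25a45 and Slc12a4 were lowest there among the hippocampal arrays. The part of these markers in the carrier values was not tested.

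After dox was restored no member was called against the late arrays (0.0566% of all probe sets), and 4 had an unadjusted p under 0.05. Slc29a1 (ENT1), the nucleoside carrier that takes up adenosine, was 8.41 on the reversed array, against 8.91, 9.42 and 9.67 on late arrays, with a difference of -0.93 ± 0.31 (adjusted p = 0.733). Its other probe set differed by 0.36 the other way, and the mean of both by -0.39. Slc48a1, a heme carrier, was 7.49 on the reversed array, against 9.48, 8.81 and 9.29 on late arrays, but its never-induced arrays spanned 7.87 to 10.00, so that this spread covers most of the step. All reversed values rest on 1 array.

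Choroid plexus carriers were represented by 10 of 17 listed genes, 6 of them tested. Slc4a5 (NBCe2), a sodium bicarbonate carrier of the choroid plexus, did not pass the filter. It measured 7.62 and 7.41 at 1 week, 6.04 and 7.02 at 2 weeks, with 7.55 at 5 weeks, against 6.35, 7.19 and 6.04 on never-induced arrays, and it was at the floor on the reversed array and all 3 CA1 arrays. Ttr (transthyretin), the defining choroid plexus transcript, was 12.91 and 13.10 at 1 week, 8.64 and 12.15 at 2 weeks, with 12.58 at 5 weeks, against 11.35, 11.49 and 10.16 on never-induced arrays. The 3 hippocampal arrays with Slc4a5 at the floor were the 3 with the lowest Ttr.

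Over the 9 hippocampal arrays Slc4a5 followed Ttr with Pearson's r = 0.914 (exact permutation p = 0.000529, adjusted 0.00529) and Spearman's rho = 0.915 (exact permutation p = 0.00155, adjusted 0.0155), two-sided, adjusted over 10 carriers. Without the 2 arrays farthest from the median of Ttr r was 0.905, and over the 8 arrays of the higher deposited scale it was 0.947. The other 9 carriers of the list did not pass this test over the 9 arrays. Among them Slc12a2 (NKCC1), which also serves neurons and glia, had r = 0.26 and Slc16a8 (MCT3) r = 0.257. Without the 2 arrays farthest in Ttr these were 0.698 for Slc12a2 and 0.824 for Slc16a8, so that both values depend on those 2 arrays, and whether Slc4a5 differs from them was not tested. Arrays of 1 group share a treatment, and both 1-week arrays were at the high end, so the relation holds group and array differences together.

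**Figure D4:**
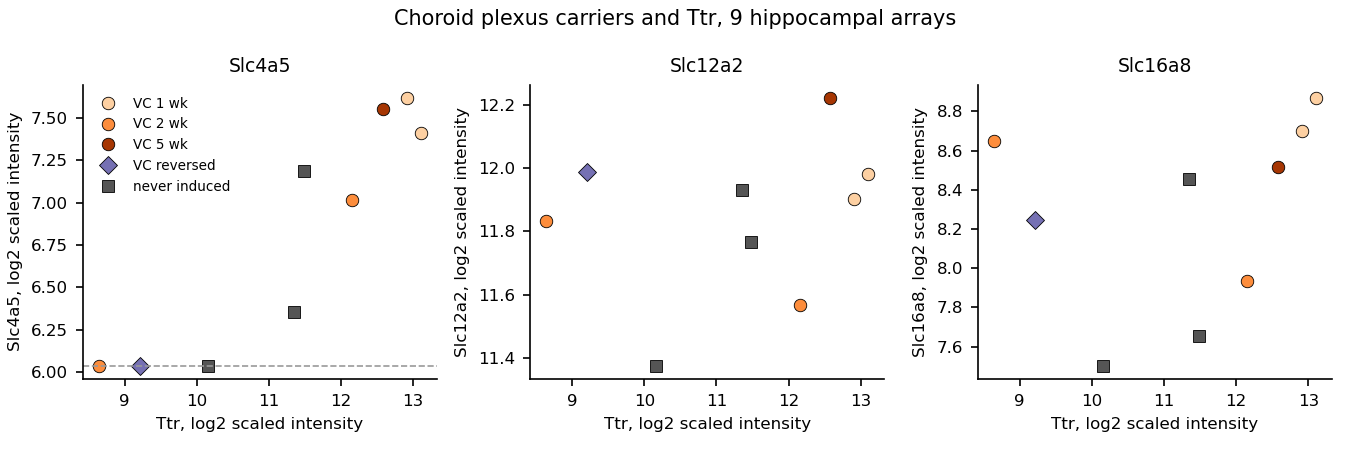
Log2 scaled intensity of Slc4a5, Slc12a2 and Slc16a8 (y axes) against that of Ttr (x axes) on the 9 hippocampal arrays, with colours for the groups and a dashed line at the floor. Slc4a5 left the floor on the 6 arrays with the highest Ttr (r = 0.914); r was 0.26 for Slc12a2 and 0.257 for Slc16a8, and 0.698 and 0.824 without the 2 arrays farthest in Ttr.

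The last comparison set CA1 against whole hippocampus, as the mean of the VC and the uninduced pairs. Of the 99 members 23 were called (23.2%, against 33.4% of all probe sets), 7 higher in CA1 (against 10.8%) and 16 lower (against 22.5%). The median difference was -0.03 over members and -0.13 over all probe sets. Quantile normalization gave 19 calls (against 27.9% of all probe sets), with 10 higher and 9 lower in CA1, and all 23 kept their sign there, 15 of them called again; its median over all probe sets was -0.03. With the deposited scale as a block, added after the data were seen, none of the 99 was called (lowest adjusted p = 0.0679), against 0.934% of all probe sets. An unadjusted p under 0.05 was then found for 21 of the 99 (21.2%, against 23.6% of all probe sets), among them 13 of the 23. The block moved 4 of the 23 differences by more than 1.5 times, to 0.36 for Slc2a3, -0.38 for Slc9a3r2, -0.42 for Slc4a1ap and -1.01 for Slc6a15. The lower scale held a single array of hippocampus (wild type 1), and region and scale are told apart by it alone. Quantile normalization moved 4 differences by more than 1.5 times, to -0.48 for Slc19a1, -0.49 for Slc9a3r2, -0.28 for Slc38a5 and -0.24 for Slc30a4.

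The called rise of largest size without the block was that of Slc4a4 (NBCe1), the sodium bicarbonate carrier of astrocytes, which read 8.40 and 9.13 in CA1 of VC mice and 9.40 in CA1 of wild-type mice, against a range of 7.31 to 8.32 over the hippocampal arrays. All CA1 arrays were above all hippocampal arrays, and the difference was 1.32 ± 0.23 (adjusted p = 0.00453). With the block it was 1.01, under the 1.29 of Slc9a3r1. The astrocyte markers summed to 15.01 to 15.73 in CA1, against 15.04 to 15.81 in hippocampus. Within this list Aqp4 was higher on every CA1 array, at 10.77 to 12.25, against 8.60 to 10.10 in hippocampus. Glul was lower on every CA1 array, at 10.41 to 10.80, against 10.86 to 11.73, and the other astrocyte markers overlapped. Slc9a3r1, described above for induction, was also higher in CA1, by 1.15 ± 0.17 (adjusted p = 0.00267).

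Slc7a5 (LAT1) was 11.75 and 11.99 in CA1 of VC mice and 11.84 in CA1 of wild-type mice, against 11.18 to 11.56 in hippocampus, with no overlap and a difference of 0.51 ± 0.12 (adjusted p = 0.0161). Slc2a1 (GLUT1) was 10.29, 11.07 and 10.44 on the CA1 arrays, against 9.60 to 10.18 in hippocampus, but was not called (0.54 ± 0.22, adjusted p = 0.0899). Both are carriers of brain endothelium, and the 6 endothelial markers summed to 12.01 to 12.48 in CA1, against 11.33 to 11.91 in hippocampus. Of these markers Cldn5, Flt1 and Cdh5 were higher on every CA1 array than on every hippocampal array, whereas Pecam1, Tek and Kdr overlapped. The part of the endothelial markers in the values of Slc7a5 and Slc2a1 was not tested. Slc38a5, an amino acid carrier on the same list, was lower in CA1 (-0.46 ± 0.12, adjusted p = 0.0204).

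Slc2a3 (GLUT3), the glucose carrier of neurons, was 11.12 and 10.79 in CA1 of VC mice and 10.93 in CA1 of wild-type mice, against 9.96 to 10.56 in hippocampus. No arrays overlapped, and the difference was 0.73 ± 0.17 (adjusted p = 0.015). Its dimmer probe set differed by -1.42, so the 2 probe sets of the gene oppose each other. The other called rises were Slc35b1, an ATP carrier of the endoplasmic reticulum (0.43), the mitochondrial glutathione carrier Slc25a39 (0.50) and Slc35e4 (0.63). CA1 arrays lay above all hippocampal arrays for 7 members (7.07%, against 7.61% of all probe sets) and below them for 13 (13.1%, against 16.8%).

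Of the 16 called falls, 3 were carriers of neurons. Slc6a15 (B0AT2), a neutral amino acid carrier, was 11.12 and 11.49 in CA1 of VC mice and 10.93 in CA1 of wild-type mice, against 11.42 to 12.17 in hippocampus (-0.65 ± 0.18, adjusted p = 0.0241). Slc12a5 was lower by a difference of -0.80 ± 0.20 (adjusted p = 0.0173). Slc6a4, the serotonin carrier, was 7.19, 7.48 and 7.76 on the CA1 arrays, against 8.30 to 9.27 in hippocampus (-0.98 ± 0.18, adjusted p = 0.0061), but its probe set is of a kind shared by related sequences, and its other probe set was at or near the floor throughout.

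Zinc and iron carriers gave 3 of the falls: Slc30a9 (ZnT9, -0.94), Slc30a4 (ZnT4, -0.38) and Slc11a2 (DMT1, -0.38). Mitochondrial carriers gave 2 falls, the ADP/ATP carrier Slc25a5 (-0.88) and the NAD carrier Slc25a51 (-0.82), beside the rise of Slc25a39. The bright probe set of Slc25a5 is also of the shared kind, and its dimmer ones differed by -0.10 and 0.28. Slc22a12 (URAT1), known as the urate carrier of the kidney, had a fall of -1.09 ± 0.16 (adjusted p = 0.00273), and of -0.93 with the block. It was 8.34 and 8.90 in CA1 of VC mice and 8.28 in CA1 of wild-type mice, against 9.35 to 9.91 in hippocampus.

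The other 6 falls were Slc22a18 (-1.07), the choline carrier family member Slc44a4 (-1.02), the folate carrier Slc19a1 (-0.74), Slc35g3 (-0.81) and the adaptors Slc9a3r2 (-0.74) and Slc4a1ap (-0.75). Slc19a1, whose dimmer probe set differed by -0.29, was the only one of the 6 tested choroid plexus carriers called, and 5 of the 6 tested had negative differences. The called probe set of Slc19a1 is, like those of Slc6a4 and Slc25a5, of the kind shared by related sequences. Ttr itself was 6.32 to 7.93 in CA1, against 8.64 to 13.10 in hippocampus. The 7 measured choroid plexus markers summed to 12.35 to 12.68 in CA1, against 12.36 to 14.02 in hippocampus. Ttr and Kl were lower on every CA1 array than on every hippocampal array, and the other markers of the list overlapped. Over the 9 hippocampal arrays Slc19a1 had r = -0.44 with Ttr. The part of choroid plexus in these values was not tested. Calls that were lost when 1 array was left out were those of Slc9a3r2, Slc38a5, Slc35b1, Slc6a15, Slc25a39, Slc35e4, Slc30a4 and Slc11a2, and 15 of the 23 were called in all 11 such fits.

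**Figure D5:**
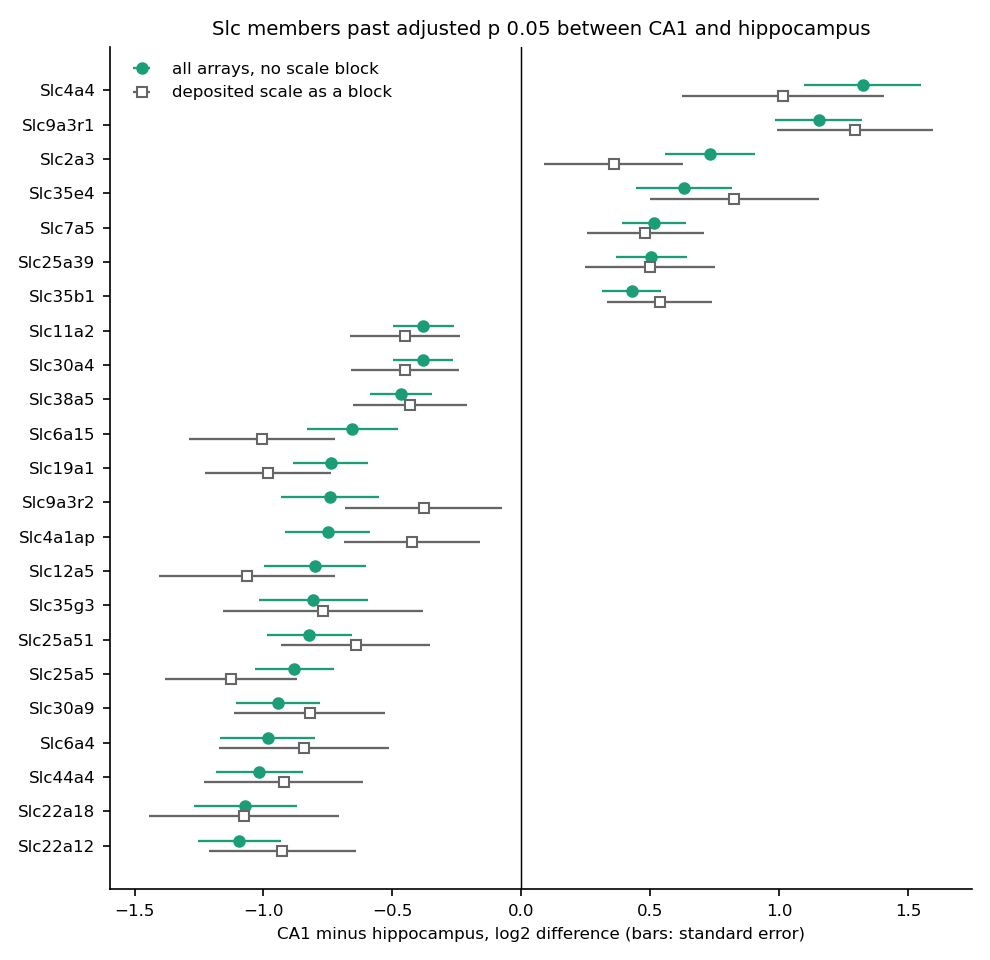
Log2 difference between CA1 and hippocampus (x axis, bars show the standard error) for the 23 called Slc members (y axis), without and with the deposited scale as a block. All 23 kept their sign with the block, from 1.32 for Slc4a4 to -1.09 for Slc22a12 without it, and none was called with it.

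The 51 members under the filter included 5 at the floor on all 12 arrays, 18 at the floor on at least 6 and 13 never at the floor. Among them, the endothelial and oligodendrocyte monocarboxylate carrier Slc16a1 (MCT1) ranged from 6.04 to 7.61, and the cystine carrier Slc7a11 from 6.04 to 6.61. The red cell anion exchanger Slc4a1 was 7.83 and 7.54 at 1 week, 7.48 and 7.66 at 2 weeks, with 7.90 at 5 weeks, against 6.55, 6.37 and 6.91 on never-induced arrays. All induced hippocampal arrays were above all never-induced ones, whereas CA1 of VC mice was at the floor of 6.04, against 6.79 in wild-type CA1. The haemoglobin transcript Hba-a1 was 12.33 to 13.86 on induced hippocampal arrays, against 12.30 to 12.72 on never-induced ones. In CA1 Hba-a1 was 13.23 and 13.02 in VC mice, against 13.20 in wild-type mice. The other measured blood marker, Alas2, was 6.04 to 8.76 on induced hippocampal arrays, against 6.04 to 6.47 on never-induced ones, so these overlapped at the floor. In CA1 Alas2 was 7.36 and 6.46 in VC mice, against 7.80 in wild-type mice. The part of blood in the Slc4a1 values was not tested. The cotransporter of inositol Slc5a11, an oligodendrocyte carrier, was at 9.32 on 1 CA1 VC array and at most 7.53 on every other array.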

How the data were processed

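RNA of 12 pooled samples was hybridised to Affymetrix MG-U74Av2 arrays, 1 array per sample. The deposited values are intensity on a linear scale, and per the submitters' processing notes the authors used GCOS, the array software (version not given). The mean of the deposited intensities, trimmed by 2% at each end, was 500.3 to 500.4 on 4 arrays and 3002 on the other 8.

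All arrays were brought to 1000 by that trimmed mean. Intensities under the 20th percentile (65.7) took its value before the log2 step. Control probe sets (66 of 12488) were left out, and a probe set was tested if above its array's median on at least 2 arrays (7069 of 12422). Symbols came from the array's annotation, which gave 10833 probe sets 1 symbol, 396 several and 1193 none; 1 probe set that named an Slc gene among several symbols was left out.

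limma 3.58.1 in R 4.3.3 (lmFit, eBayes, tested on simulated data) fitted 7 levels over all 12 arrays, and region with induction over 11 arrays. P-values are two-sided and adjusted over all 7069 probe sets. Levels with 1 array were assumed to vary like the replicated ones. Members were named if called, among the 8 smallest p in a direction, among the 10 brightest, or among the brighter tested members of a carrier list. Not every member that met this rule is described. Members without overlap, under the filter or with a promoter match were added after their values were seen. The members and lists were chosen with earlier results of these data known, and the lists of metal and further carriers after their values were seen. Same-numbered samples did not deviate together (correlations 0.04, 0.02 and -0.10), so no block was used. Alternatives changed scaling, floor, filter, spread model, scale block, probe set rule and left out single arrays. Of one further Slc gene nothing is reported here. The number of arrays limits the precision.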

Additional observations from a re-analysis of the deposited data

Results flagged for a closer look

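Of 49 members checked, 4 had 1 of the 5 induced hippocampal arrays far from the other 4 by Dixon's test, which chance alone flags in about 1 of 20. Slc12a5 was highest at 9.19 on 1 array at 1 week, with the next at 8.69. Slc25a39 was lowest at 11.13 on the same array, with the next at 11.42. Slc23a3 was lowest at 9.68 and Slc25a20, the mitochondrial carnitine carrier, lowest at 9.38 on the 5-week array, with the next at 10.13 and 9.83.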

How the results depend on the processing

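Counts of called members stayed at 0 of 99 for the induced, late, 1-week, late minus 1-week and reversal comparisons under all alternatives run. With no filter 4 members were called in CA1 of VC against wild-type mice. The comparison of the CA1 with the hippocampal effect then gave 3. Leaving out 1 hippocampal array gave 0 calls in CA1. Leaving out a CA1 VC array leaves 1 array against 1, and members then passed the threshold only without array 1. For CA1 against hippocampus the scale block gave 0 calls, quantile normalization 19, and leaving out 1 array 18 to 31. Members without overlap in both regions numbered 2 to 5 above and 1 to 3 below over all alternatives, with 5 above without array 2 at 1 week, 3 below without wild-type array 1, and 2 below without the array on dox, wild-type array 2 or array 1 at 2 weeks. In the late comparison, leaving out 1 array gave -0.13 to 0.64 for Slc11a1 and -0.36 to 0.081 for Slc30a3, with -0.13 and 0.081 without the 5-week array. A replicate block over the numbered hippocampal arrays called 0 members in each of the 3 hippocampal comparisons; there, with or without the block, Slc11a1 was -0.19 and Slc30a3 0.015. Over 85 pairs of gene and comparison, 1463 values kept direction and side of the threshold, 59 lost their call, 2 gained one and 6 changed sign, those of Slc11a1 and Slc30a3 given here, and the causes were not tested. CA1 comparisons could not be fitted without the wild-type CA1 array, nor reversal without the reversed array.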
